A study of Mus musculus with 14 samples.

Results

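The annexins Anxa1, Anxa2, Anxa3, Anxa4, Anxa5, Anxa6 and Anxa7 and the S100 genes S100a4, S100a6 and S100a10 were followed through mouse spleen cell fractions. Their probe sets had a single gene symbol in the array annotation, which after updating through the Entrez identifier was 1 of these 10 names. This gave 23 of 36701 probe sets other than controls, and 10 of 15965 genes. RNA was taken from splenocytes enriched for follicular dendritic cells (FDC-E), which are stroma of the B cell follicle that keeps antigen on its surface, or from splenocytes depleted of them (FDC-D). Each preparation was hybridised to up to 3 kinds of array with different probe sets, here array sets A, B and C after the letter that ends each sample title. Sets A and C held FDC-D samples 1 and 2 and FDC-E samples 1, 2 and 3, and set B held FDC-D samples 1 and 2 and FDC-E samples 2 and 3. The strain, genotype, age and treatment of the mice, any pooling of animals and the way in which the fractions were made were not stated in the labels. The labels also do not tie samples to animals, so the spread between samples may be technical.

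Annexins are proteins that bind acidic phospholipids when calcium rises, and so gather at the inner face of the plasma membrane and of vesicles. S100 proteins are small calcium sensors of the EF-hand type that work as dimers, and several of them dock on the variable amino-terminal tail of an annexin. The best known pair is annexin A2 with S100a10, which links membranes to the cortical actin skeleton and, at the cell surface, holds plasminogen and its activator. Annexins and S100 proteins are made by stromal, endothelial and myeloid cells of lymphoid tissue, in amounts that differ by cell type.

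The start regions of 4 members are shown. Anxa1 and Anxa2 were taken for 2 of the larger enriched-over-depleted differences. S100a6 and S100a4 were taken as close neighbours on chromosome 3, of which the first passed the threshold and the second did not. The 250 bases before the annotated start are RefSeq sequences of build GRCm38.p6, matched by symbol for 7 of the 10 members. Anxa3, Anxa6 and S100a10 had no such sequence. Capitals mark matches to the motifs searched on both strands, which were 4 in number. The AP-1 motif was TGACTCA, whose reverse complement is TGAGTCA. The TATA box was taken as TATAAA. The GC box was taken as GGGCGG. The CCAAT box was taken as its letters.
Anxa1, chr19:20390672-20390921, minus strand: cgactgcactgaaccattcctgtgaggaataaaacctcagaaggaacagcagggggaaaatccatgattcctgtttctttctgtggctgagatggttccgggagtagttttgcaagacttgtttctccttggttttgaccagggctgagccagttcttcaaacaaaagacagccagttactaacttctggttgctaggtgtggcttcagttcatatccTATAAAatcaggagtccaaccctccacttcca
Anxa2, chr9:69453433-69453682, plus strand: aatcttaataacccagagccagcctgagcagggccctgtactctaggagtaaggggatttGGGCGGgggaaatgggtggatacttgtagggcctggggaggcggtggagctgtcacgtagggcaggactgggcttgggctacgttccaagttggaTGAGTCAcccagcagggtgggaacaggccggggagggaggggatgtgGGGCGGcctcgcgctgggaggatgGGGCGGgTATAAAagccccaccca
S100a4, chr3:90603520-90603769, plus strand: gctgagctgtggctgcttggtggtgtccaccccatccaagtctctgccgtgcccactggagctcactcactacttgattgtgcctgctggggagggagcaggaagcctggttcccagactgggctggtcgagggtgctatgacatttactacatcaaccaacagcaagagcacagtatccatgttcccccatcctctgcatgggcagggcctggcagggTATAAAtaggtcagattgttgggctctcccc
S100a6, chr3:90612644-90612893, plus strand: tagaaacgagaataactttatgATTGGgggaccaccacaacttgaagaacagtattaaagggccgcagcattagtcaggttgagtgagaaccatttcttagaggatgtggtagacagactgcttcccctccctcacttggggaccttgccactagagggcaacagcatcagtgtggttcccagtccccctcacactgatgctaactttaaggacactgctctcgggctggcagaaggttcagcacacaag

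In these windows a TATA box began 32 bases before the start of Anxa1, 31 bases before that of S100a4 and 17 bases before that of Anxa2, and none was found before S100a6. The Anxa2 window also held 1 AP-1 match, 95 bases before the start, and 3 GC boxes, and the S100a6 window held 1 CCAAT box on the opposite strand, 228 bases before the start. No 2 motif matches overlapped in the 4 windows. Among all 32851 start windows of the table, 12.4% held the TATA box, 4.46% the AP-1 motif, 32.7% the GC box and 33.8% the CCAAT box. The matches are a description of the sequence and not evidence of binding. The only protein-coding gene between S100a4 and S100a6 was S100a5, whose values are given with the other S100 genes.

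Values are linear intensities as deposited, in arbitrary units, and are compared only within a probe set. Fold changes come from the difference in log2(intensity + pseudocount) between FDC-E and FDC-D, with pseudocounts of 88.49 on set A, 81.23 on set B and 53.13 on set C, and are given with their standard error (SE). They understate the difference of dim probe sets, so the ratio of group means is also given where this matters. A probe set was tested when 2 or more arrays had it above their 40th percentile, and it passed at an adjusted p under 0.05 (limma across all tested probe sets of the array set, Benjamini-Hochberg). The 10 genes are treated as chosen on the measured differences between FDC-E and FDC-D of these same arrays. Their differences and calls are therefore a description, no p-value is given for them, and nothing is supported by them.

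Of the 23 probe sets 18 were tested, of which 12 were higher in FDC-E, 1 was lower and 5 did not pass. Across all 23039 tested probe sets of the 3 array sets, 17.5% were called higher and 14.7% lower. The median log2 fold change was 0.62 over the 18 tested probe sets and 0.013 over all tested probe sets. By array set, 8 of the 14 probe sets on A were called higher, 1 was lower, 2 did not pass and 3 were not tested. Of all tested probe sets on A, 23.1% were called higher and 17.9% lower. On B 1 of 2 was called higher and the other was not tested, against 19.4% higher and 17% lower of all tested. On C 3 of 7 were called higher, 3 did not pass and 1 was not tested, against 9.5% and 8.73% of all tested. None was called lower on B or C. In such bulk samples a change in the number of cells of a type and a change in RNA per cell cannot be told apart. With the brightest tested probe set standing for a gene, Anxa1, Anxa2, Anxa3, Anxa4, Anxa5, S100a6 and S100a10 were called higher, Anxa6 was called lower, S100a4 did not pass and Anxa7 was not tested. Over all 12267 genes taken the same way, 19.2% were called higher and 14.5% lower. The intensities of the groups did not overlap for 20 of the 23 probe sets, 19 with the enriched arrays above and 1 with them below. The corresponding shares over all probe sets were 28.5% and 24.8%.

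**Figure D1:**
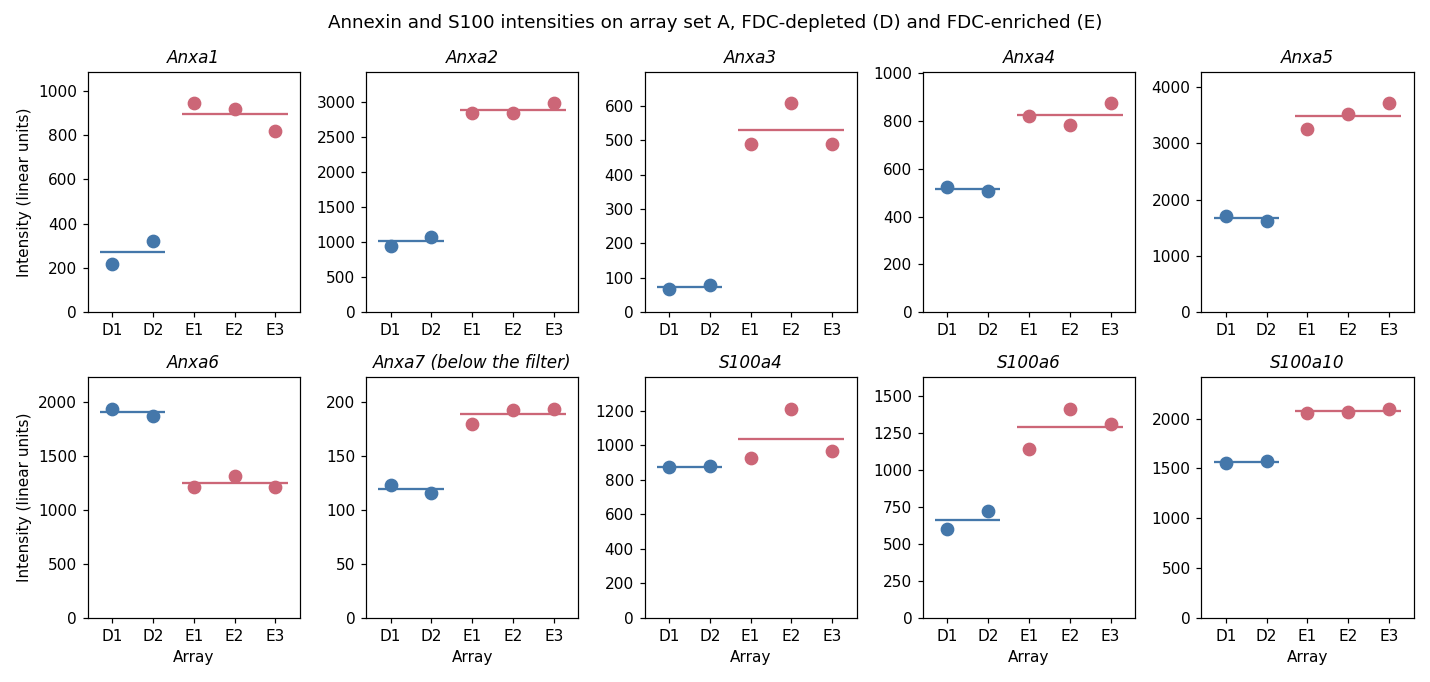
Linear intensity (y axis, from 0) on each array of set A (x axis, D for FDC-D and E for FDC-E), with the probe set that stands for each gene and, for Anxa7, its brightest probe set, which lay below the filter. Points are single arrays and lines are group means. The FDC-E arrays lie above the FDC-D arrays in every panel except that of Anxa6, where they lie below.

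The annexin with the largest fold change was Anxa3, a family member known from neutrophils and blood vessels. Its intensity was 67 and 80.3 on the FDC-D arrays and 488, 607 and 490 on the FDC-E arrays of set A. The groups were far apart, with a mean of 73.7 ± 9.42 (SD, n = 2) against 528 ± 68.1 (SD, n = 3). This was a 7.17-fold ratio of means, but a fitted 3.79-fold difference (log2 1.92, SE 0.099), because the depleted values lie below the pseudocount. Anxa3 lay above the filter on the 3 FDC-E arrays alone, so it could be tested only because it was high there. Endothelial markers were higher on the same arrays. All 16 tested endothelial genes rose, with a summed intensity of 13 genes on A of 2587 to 2736 on FDC-D and 22763 to 25274 on FDC-E arrays. Of 6 tested neutrophil genes 3 fell, 3 missed the threshold and none rose. The summed intensity of 9 such genes on set A was 3740 to 3757 on FDC-D and 2524 to 2858 on FDC-E arrays, and that of 2 such genes on C was 116 to 124 and 126 to 133. In that list Ly6g, Mmp8 and Mpo lay below the filter, and no gene was at 0 throughout a group. The part of either cell type in the Anxa3 value was not tested.

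Anxa1, the glucocorticoid-induced annexin whose amino-terminal peptides act on formyl peptide receptors, was 219 and 323 on the FDC-D arrays and 943, 916 and 819 on the FDC-E arrays. The groups did not overlap, and the fitted difference was 2.75-fold (log2 1.46, SE 0.12). A further Anxa1 probe set on A, which had no value for FDC-E sample 2, was 181 and 227 against 746 and 608, and it was fitted on the remaining 4 arrays (log2 fold change 1.39, SE 0.12). The remaining one lay below the filter on all 5 arrays, at 19.9 and 20.6 on FDC-D and 75.5, 89.5 and 67.7 on FDC-E. The ratios of means of these 3 Anxa1 probe sets lay close together, at 3.29, 3.32 and 3.84.

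Anxa2, the annexin that pairs with S100a10, was 951 and 1074 on the FDC-D arrays and 2844, 2848 and 2985 on the FDC-E arrays of set A. The enriched arrays differed little among themselves, with a mean of 2892 ± 80.2 (SD, n = 3) against 1012 ± 87 (SD, n = 2), and the fitted difference was 2.71-fold (log2 1.44, SE 0.082). A dimmer Anxa2 probe set on C was 155 and 143 against 243, 227 and 282, again without overlap and with a smaller difference (log2 0.58, SE 0.078).

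S100a10, the partner of annexin A2 that has lost calcium binding, was also higher, by less. On its brightest probe set it was 1557 and 1576 on the FDC-D arrays and 2055, 2066 and 2098 on the FDC-E arrays of set A. The spread within the groups was small (1567 ± 13.1, SD, n = 2, and 2073 ± 22.3, SD, n = 3), and the fitted difference was 1.31-fold (log2 0.38, SE 0.072). The S100a10 probe set on B was 158 and 180 against 284 and 337, a 1.56-fold difference (log2 0.65, SE 0.077). The other one on A, without a value for FDC-E sample 2, was 406 and 390 against 533 and 447 and did not pass (log2 0.25, SE 0.096). All 3 S100a10 probe sets thus had FDC-E above FDC-D without overlap, with log2 fold changes of 0.25, 0.38 and 0.65. These lay below the 1.44 of the brighter Anxa2 probe set, and the dimmer Anxa2 probe set (0.58) lay within their range.

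Anxa5, the annexin that binds phosphatidylserine on dying cells and is used to stain them, was 1716 and 1619 on the FDC-D arrays and 3252, 3519 and 3712 on the FDC-E arrays of set A. The groups did not overlap, and the fitted difference was 2.04-fold (log2 1.03, SE 0.085). The 3 Anxa5 probe sets on C did not give 1 answer. One of them was 76.1 and 114 against 318, 341 and 330 and was called higher (log2 1.38, SE 0.097). Another was 328 and 365 against 351, 336 and 340, overlapping between groups with a log2 fold change of -0.02 (SE 0.058). The remaining one was 501 and 439 against 535, 510 and 520 and did not pass (log2 0.14, SE 0.064).

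Anxa4, an annexin of secretory epithelia, was 525 and 505 on the FDC-D arrays and 821, 784 and 873 on the FDC-E arrays of set A. Without overlap, the fitted difference was 1.51-fold (log2 0.6, SE 0.076). On C, 1 probe set was 63.8 and 71 against 145, 167 and 165 (log2 0.82, SE 0.06), and like Anxa3 it lay above the filter on the 3 FDC-E arrays alone. Another was 121 and 116 against 130, 125 and 133 and did not pass (log2 0.09, SE 0.047). The last, from 20.2 to 30.1 on the 5 arrays, lay below the filter, and its groups overlapped.

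Anxa7, the annexin first described in the fusion of secretory vesicles, had no tested probe set. Its brightest one on A was 123 and 116 on the FDC-D arrays and 180, 193 and 194 on the FDC-E arrays. The groups did not overlap, but the probe set lay above the filter on 1 array, so just outside it. On B it was 81.7 and 75.1 against 110 and 108, also without overlap, and another probe set on A was alike in both groups at 49.2 to 54.9.

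Anxa6, a larger annexin that carries the conserved core in duplicate, was the member that was lower in FDC-E. It was 1935 and 1868 on the FDC-D arrays and 1213, 1317 and 1215 on the FDC-E arrays. The groups did not overlap, with 1902 ± 47.2 (SD, n = 2) against 1248 ± 59.5 (SD, n = 3) and a fitted 1.49-fold difference (log2 -0.57, SE 0.077). It was measured by a single probe set, so no other probe set could be set beside it. Lymphocyte markers were lower on the same arrays. Of 8 tested B cell genes 7 fell and none rose, with a summed intensity of 7 genes on set A of 20560 to 20815 on FDC-D and 6197 to 8029 on FDC-E arrays. Of 8 tested T cell genes 6 fell and none rose, with a summed intensity of 8 genes on A of 6424 to 6771 against 3531 to 4154. All 5 tested NK cell genes fell. No gene of these lists was at 0 throughout a group, and the part of the lymphocytes in the Anxa6 value was not tested.

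S100a6, also called calcyclin, was 604 and 725 on the FDC-D arrays and 1145, 1415 and 1309 on the FDC-E arrays. The groups did not overlap, with 664 ± 85.5 (SD, n = 2) against 1290 ± 136 (SD, n = 3), and the fitted difference was 1.83-fold (log2 0.87, SE 0.11). S100a4, a fibroblast and metastasis-associated protein that binds nonmuscle myosin, was 877 and 878 on the FDC-D arrays and 927, 1213 and 970 on the FDC-E arrays. FDC-E sample 2 lay well above the other 2 FDC-E arrays, and the log2 fold change of 0.21 (SE 0.11) did not pass. The group means were 877 ± 0.58 (SD, n = 2) and 1037 ± 154 (SD, n = 3), so nearly all of the spread lay among the enriched arrays.

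**Figure D2:**
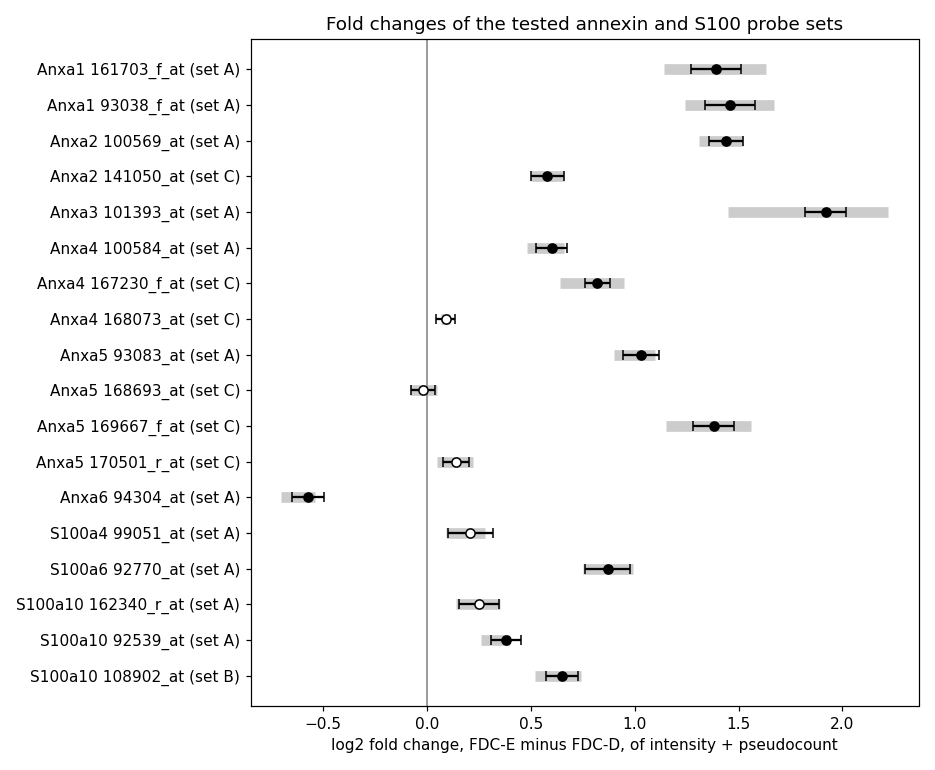
Log2 fold change of FDC-E over FDC-D (x axis) for the 18 tested probe sets (y axis, with array set). Circles with bars are the fitted value ± 1 SE, filled where the probe set passed, and grey bands span all processing settings. Only Anxa6 lies on the negative side among the filled circles, and the Anxa4 and Anxa5 probe sets on set C include open circles near 0.

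Arranged by fold change of the brightest probe set, the members ran from Anxa3 (log2 1.92, SE 0.099) over Anxa1 (1.46, SE 0.12), Anxa2 (1.44, SE 0.082), Anxa5 (1.03, SE 0.085), S100a6 (0.87, SE 0.11), Anxa4 (0.6, SE 0.076), S100a10 (0.38, SE 0.072) and S100a4 (0.21, SE 0.11) to Anxa6 (-0.57, SE 0.077). The neighbours Anxa1 and Anxa2 differed by less than 1 SE. Anxa5 and S100a6, as well as S100a10 and S100a4, lay within their summed errors of each other. The gap between Anxa6 and every other tested member was several times the errors. Each SE is that of 1 probe set and does not cover the spread between probe sets of a gene. The tested Anxa5 probe sets ran from -0.02 to 1.38 and those of Anxa4 from 0.09 to 0.82. This order therefore describes the brightest probe sets alone.

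The probe sets with the most similar pattern over the 5 arrays of set A were found by Euclidean distance between log2 values centred on their mean. For Anxa2 they were those of Lima1, an actin cross-linker gene (distance 0.0835), Itgb1, the integrin beta 1 gene (0.0981), and Qk, an RNA-binding protein gene (0.105). For S100a6 they were Itm2b (0.0747), Mcl1, an anti-apoptotic Bcl2 family gene (0.0765), and Sgpl1, the sphingosine phosphate lyase gene (0.0765). These distances over 5 arrays of 2 groups mostly record the size of the group difference.

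Most other annexins could not be judged. Of 5 listed, Anxa8, Anxa9, Anxa10, Anxa11 and Anxa13, only Anxa9 had a tested probe set with a single symbol, and it did not pass. It was 318 and 315 on the FDC-D and 320 and 327 on the FDC-E arrays of set B (log2 0.02, SE 0.058). Its direction turned to -0.01 under both other scalings.

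The other S100 genes went in both directions. Of 8 tested genes out of 13, 3 rose, 2 fell and 3 did not pass, with a median log2 fold change of 0.06 against 0.019 over all genes. Over all genes, 19.2% were called higher and 14.5% lower. S100a8 and S100a9, which form the calprotectin of neutrophils and monocytes, fell. S100a8 was 1151 and 1557 on the FDC-D and 203, 181 and 93.3 on the FDC-E arrays (log2 -2.56, SE 0.2, adjusted p = 2.25e-05), and S100a9 was 2102 and 2480 against 1276, 1045 and 826 (log2 -1.08, SE 0.16, adjusted p = 0.000828). The summed neutrophil markers given with Anxa3 were also lower on FDC-E arrays of set A, and their part in this was not tested. S100a1, known from heart muscle, rose from 142 and 161 to 245, 281 and 259 (log2 0.55, SE 0.076, adjusted p = 0.000604). S100a13, which takes part in the release of growth factors that lack a signal peptide, rose at its brightest probe set from 1652 and 1678 to 2017, 2094 and 2202 (log2 0.32, SE 0.077, adjusted p = 0.0105), and by log2 0.94 at each of 2 further probe sets on A. Its remaining tested probe set, on C, did not pass (log2 0.09, SE 0.062, adjusted p = 0.381). S100a16 rose from 622 and 626 to 703, 792 and 776 on set C (log2 0.26, SE 0.062, adjusted p = 0.023). S100a5 (log2 0.07, SE 0.11), S100a14 (0.05, SE 0.082) and S100a3 (-0.05, SE 0.087) did not pass, and the first 2 turned negative under both other scalings. The call of S100a16 was lost without any 1 of FDC-D 1, FDC-D 2, FDC-E 2 and FDC-E 3 (adjusted p = 0.0734 to 0.105) and that of S100a13 at its brightest probe set without FDC-D 1 or 2 (0.104 and 0.0842) and with scaling to the median array (0.103). Both calls were lost when the replicate number was blocked (0.172 for S100a16 and 0.0729 for S100a13).

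**Figure D3:**
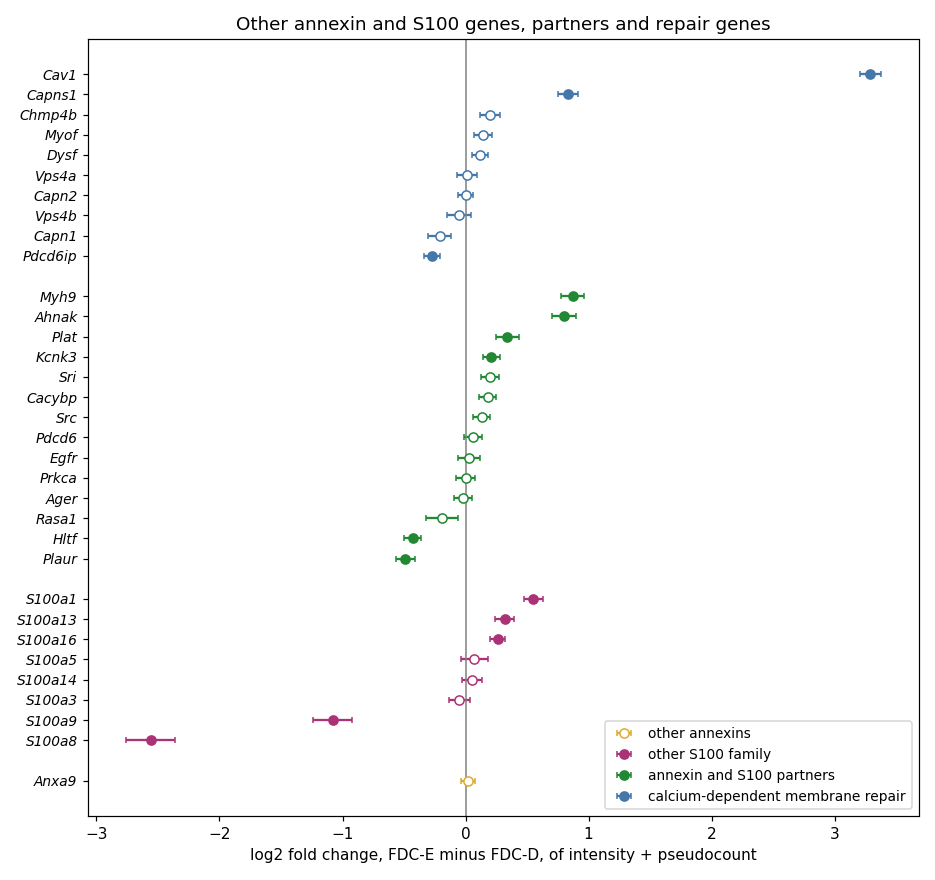
Log2 fold change of FDC-E over FDC-D (x axis) ± 1 SE for each tested gene (y axis) of the 4 lists of relatives and partners, 1 probe set per gene, filled where the gene passed. Cav1 lies far to the right and S100a8 far to the left, S100a9 lies at -1.08, and the other genes lie within 1 log2 unit of 0.

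Among 14 tested genes out of 21 for partners, ligands and targets of these proteins, 4 rose, 2 fell and 8 did not pass (median log2 fold change 0.1). The shares over all genes were 19.2% called higher and 14.5% lower. Ahnak, a giant scaffold protein that binds the annexin A2 and S100a10 complex, rose from 1385 and 1576 to 2406, 2808 and 2716 (log2 0.8, SE 0.097, adjusted p = 0.000272), and its other tested probe set, on C, did not pass (log2 0.16, adjusted p = 0.0667). Myh9, the nonmuscle myosin heavy chain bound by S100a4, rose from 1890 and 1618 to 3132, 3173 and 3487 at its brightest probe set (log2 0.87, SE 0.094, adjusted p = 0.000146), whereas its 2 other tested probe sets did not pass. Plat, the tissue plasminogen activator gene, had 1 other tested probe set, which was also called higher. At its brightest probe set Plat rose from 1820 and 1619 to 2135, 2091 and 2381 (log2 0.34, SE 0.092, adjusted p = 0.018). This call was lost under both other scalings (0.0522 and 0.128), when the replicate number was blocked (0.0799) and without FDC-D 2 or FDC-E 3 (0.194 and 0.0621). Kcnk3, a potassium channel that S100a10 binds, rose from 924 and 844 to 1076 and 994 on set B (log2 0.21, SE 0.072, adjusted p = 0.0456), a call also lost under both other scalings (0.0814 and 0.112), with no filter (0.0508), with adjustment over the 3 array sets (0.0501) and without FDC-D 1, FDC-D 2 or FDC-E 2 (0.0567, 0.29 and 0.163). Plaur, the urokinase receptor gene, fell from 782 and 880 to 551, 553 and 592 (log2 -0.49, SE 0.079, adjusted p = 0.0014). Hltf, a chromatin factor that binds the annexin A2 and S100a10 complex in mouse brain, fell from 723 and 653 to 480 and 496 on set B (log2 -0.43, SE 0.069, adjusted p = 0.000714), and its 2 other tested probe sets fell as well. The log2 fold changes of Sri (0.2), Cacybp (0.18), Src (0.13), Pdcd6 (0.06), Egfr (0.03), Prkca (0), Ager (-0.02) and Rasa1 (-0.19) did not pass.

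Of 10 tested genes out of 11 for calcium-dependent membrane repair, 2 rose, 1 fell and 7 did not pass (median log2 fold change 0.06). These counts lay near the shares over all genes, 19.2% called higher and 14.5% lower. Cav1, the caveolin gene of endothelium and other caveolae-rich cells, rose from 134 and 140 to 1949, 2281 and 2118 (log2 3.29, SE 0.085, adjusted p = 9.36e-08). Capns1, the small subunit of calpains, rose from 1159 and 1017 to 2018, 1978 and 1981 (log2 0.83, SE 0.082, adjusted p = 8.6e-05). Pdcd6ip, an adaptor of the membrane scission machinery, fell on set C from 409 and 367 to 291, 320 and 324 (log2 -0.27, SE 0.065, adjusted p = 0.0215), which was lost without FDC-D 1 (0.116) and when the replicate number was blocked (0.0544), and its 2 other tested probe sets did not pass. Chmp4b (0.2), Myof (0.14), Dysf (0.12), Vps4a (0.01), Capn2 (0), Vps4b (-0.05) and Capn1 (-0.21) did not pass as log2 fold changes of their brightest probe sets. Other probe sets of 3 of these genes did pass, upwards for Capn2 (log2 0.59, adjusted p = 0.000403) and Dysf (0.27, 0.00746) and downwards for Chmp4b (-0.34, 0.0236).

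The arrays within a group were alike (Spearman correlations of 0.9862 to 0.9955 across probe sets, against 0.9136 to 0.9699 between groups). Of 15 tested FDC marker genes 11 rose and none fell, and the summed intensity over 14 genes on set A was 6249 to 7156 on FDC-D and 23733 to 28240 on FDC-E arrays. On B the sum over 4 genes of this list was 914 to 921 on FDC-D and 899 to 1012 on FDC-E arrays, so the groups overlapped. On C the sum over 3 genes, of which 1 was tested, was 749 to 774 against 708 to 758, also overlapping. Markers of several other cells rose on FDC-E arrays. The endothelial values are given with Anxa3. Of 10 fibroblast and contractile stroma genes 9 rose, with 2647 to 2677 against 11529 to 12866 over 11 genes on A. Of 12 macrophage genes 11 rose, with 9200 to 11088 against 21723 to 24782 over 12 genes on A. Of 5 megakaryocyte and platelet genes 4 rose, of 5 mesothelial and epithelial genes 1 rose, and of 3 erythroid genes 1 rose. None of these genes fell and none was at 0 throughout a group. The part of each cell type in the annexin and S100 values was not tested.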

How the data were processed

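Total RNA of mouse splenocyte fractions was measured on 14 arrays of 3 array sets. Intensity values on a linear scale were deposited by the authors in 1 table for each array set, and their summary method, background correction and scaling were not stated in the labels. The number of arrays limits the precision. No column belonged to other samples. Missing values (893 on set A, all of FDC-E sample 2) were left missing. Symbols came from the array annotation and were updated through the Entrez identifier to GRCm38.p6. Each array set was fitted alone with limma 3.58.1 in R 4.3.3 (lmFit, eBayes with a trended prior variance, two-sided, Benjamini-Hochberg), without scaling, on log2(intensity + the 20th percentile of positive values), after the filter at the 40th percentile on at least 2 arrays and without 66 array controls per set. The fit was tested on 1 simulated data set for each array set, where the share of false calls was below the threshold of 0.05 on A and B and above it on C. The brightest tested probe set, from the array set where it ranks highest, stood for a gene. Every member probe set, every tested gene of the lists of relatives and partners, and the 3 nearest patterns of Anxa2 and S100a6 were named. Of the cell type lists only counts and summed levels were taken. The members and lists were chosen with earlier results of these data known. Other scalings, pseudocounts, filters, prior variance, array weights, adjustment, left-out samples, the replicate number as a block and another choice of probe set were tried.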

Additional observations from a re-analysis of the deposited data

How the results depend on the processing

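All 13 called member probe sets kept their direction and their call under the main and all 15 other settings. Of the other 5, the dimmer S100a10 probe set on A was called higher without FDC-E sample 3, with 1 FDC-E array left (log2 0.35), and the flat Anxa5 probe set on C ran from -0.08 to 0.05 with samples left out. Leaving out each sample gave 12 to 13 higher and 1 lower member probe sets. The Anxa3 log2 fold change ran from 1.45 to 2.22 with the pseudocount. That of the brightest S100a10 probe set ran from 0.26 to 0.4 over all settings, and its call came close to the threshold. The S100a10 probe set on B kept the same fit with the block and without FDC-E sample 1, which has no array there. With no filter Anxa7 had log2 fold changes of 0.41 (SE 0.064) on A and 0.25 (SE 0.05) on B. The replicate numbers are not known to pair samples. As a block on A and C they left the member calls as they were and moved the S100 genes that rose from 3 to 1 and the repair genes that fell from 1 to 0. Same-numbered samples had deviations from the group mean that correlated at 0.033 and 0.061 on A and at -0.312 and -0.149 on C. Differently numbered ones ran from -0.061 to 0.031 on A and from -0.246 to 0.312 on C. With 2 FDC-D arrays, the deviations of 1 are those of the other with the sign reversed. Each correlation with FDC-D 1 thus fixes that with FDC-D 2, and these values cannot show or exclude pairing. On B the groups share 1 number, so no block was fitted. Partner genes that rose went from 4 to 2 under quantile normalization, scaling to the median array and the probe set with the smallest change. Repair genes that fell were 2 under both scalings and array weights and 0 with the probe set of smallest change. Where 1 array of a group was left, it was assumed to vary like the other group. Without single samples, 1 to 3 S100 genes rose, 2 to 4 partner genes rose and 0 to 2 repair genes fell.

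On set A, 1824 probe sets were called higher and 1416 lower, against 1447 and 2042 with quantile normalization and 1375 and 2162 with scaling to the median array. The median log2 fold change of set A was 0.021 in the main fit, -0.074 and -0.088 under these. In the values as deposited, which the main fit used without scaling, the array medians on A were 244 to 250.8 for FDC-D. For FDC-E they were higher, at 264.7 to 279. Near 0, directions of genes that did not pass turned. With quantile normalization Anxa9 had -0.01, S100a5 -0.02, S100a14 -0.04, Egfr -0.08, Pdcd6 -0.04, Prkca -0.09, Capn2 -0.02 and Vps4a -0.09. With scaling to the median array Anxa9 had -0.01, S100a5 -0.02, S100a14 -0.05, Egfr -0.08, Pdcd6 -0.04, Prkca -0.11, Capn2 -0.02 and Vps4a -0.11. Egfr had -0.02 with array weights, and Prkca -0.03 and Capn2 -0.01 with the block. With each sample left out in turn, the log2 fold change ran from -0.04 to 0.01 for Ager, from -0.01 to 0.17 for S100a5, from -0.06 to 0.11 for Egfr, from -0.08 to 0.08 for Prkca, from -0.06 to 0.06 for Capn2, from -0.05 to 0.06 for Vps4a and from -0.18 to 0.07 for Vps4b. Among all values of the relatives and partners under other settings, 23 lost a call and 12 gained one in the same direction. The cause of these changes was not tested, and how far dim probe sets lay above background is not known from the tables.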
